A study of Homo sapiens with 24 samples.

Results

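The genes that load peptides onto MHC class I molecules and carry them to the cell surface were followed through mocetinostat treatment and loss of ID3. The set was fixed by name as HLA-B, HLA-C, HLA-E, HLA-F, B2M, TAP1, TAP2, TAPBP and NLRC5. These 9 symbols occupy 10 of the 57820 gene rows of the deposited tables, since TAP2 has a second row. That second TAP2 row held no count in 19 of 24 libraries and at most 0.0460 CPM (fragment counts scaled to the TMM-adjusted library total) in the rest, so it was not tested. All TAP2 values come from the counted row. The series holds 24 RNA-seq libraries in 8 groups of 3 biological replicates. Human osteosarcoma cells, either wild type (WT) or knocked out for ID3 (ID3-KO), were left untreated or exposed for 24 h to mocetinostat, an inhibitor of class I histone deacetylases. The 4 AID-DIvA groups (WT untreated, WT treated, ID3-KO untreated, ID3-KO treated) are a U2OS derivative that carries an inducible AsiSI nuclease, and their treated cells were collected after a further 24 h in drug-free medium. Tamoxifen, which moves the nuclease into the nucleus, is not stated for these libraries, and no drug dose is stated for them. The 4 U2OS groups were WT or ID3-KO, untreated or treated, and the treated cells were collected before any recovery. The library names of the second set also carry the word DivA although their cell line label is U2OS. Titles and treatment labels contradict each other in the AID-DIvA set, and groups here follow the titles. Whether the ID3-KO cells are 1 clone is not stated. Cell line, collection stage and sequencing set coincide and cannot be told apart.

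MHC class I molecules display peptides from inside the cell to CD8+ T cells. Each is a heavy chain, such as HLA-B or HLA-C, paired with beta-2-microglobulin, the product of B2M. Peptides cut by the proteasome enter the endoplasmic reticulum through the TAP1-TAP2 transporter, where tapasin, the product of TAPBP, holds empty class I molecules to the transporter. HLA-E presents mainly leader peptides of other class I molecules to natural killer cell receptors, and HLA-F is a nonclassical heavy chain. NLRC5 is the transactivator of class I genes and works through RFX, NFY and CREB family proteins bound at their promoters, while interferon acts in part through IRF1.

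In the GRCh37 coordinates of the deposited tables, 7 of the 9 genes lie in the MHC on chromosome 6. From the first to the last base they run as HLA-F (chr6:29690552-29706305, plus strand), HLA-E (chr6:30457244-30461982, plus), HLA-C (chr6:31236526-31239907, minus), HLA-B (chr6:31321649-31324965, minus), TAP2 (chr6:32789610-32806557, minus), TAP1 (chr6:32812986-32821755, minus) and TAPBP (chr6:33267471-33282164, minus). B2M lies at chr15:45003675-45011075 and NLRC5 at chr16:57023397-57117443, both on the plus strand. All intervals are whole genes, and counts were summed over their exons. HLA-F shares 11928 bases with the antisense gene HLA-F-AS1, and TAP1 lies wholly within the span of PSMB9 on the opposite strand. The class I heavy chain genes are near-identical copies of each other in parts, and how reads shared between them were counted is not given in the sources used here, so their levels are uncertain to that extent.

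Promoter sequences were taken from RefSeq (GRCh38.p14), which gave an entry for 7 of the 9 genes, and 5 are shown because these members span the responses described below. Each line is the 250 bases before the transcription start, 5′ to 3′ on the strand of the gene. Capitals mark matches, on either strand, to GAANNGAAA or the same with 1 more A after the first GAA (ISRE-like), GGGNNTTCC (NF-kappaB-like), CCAAT (read as ATTGG on the other strand) and TGACG, and neighbouring ISRE-like matches may overlap.
HLA-B (chr6:31357180-31357429, minus strand): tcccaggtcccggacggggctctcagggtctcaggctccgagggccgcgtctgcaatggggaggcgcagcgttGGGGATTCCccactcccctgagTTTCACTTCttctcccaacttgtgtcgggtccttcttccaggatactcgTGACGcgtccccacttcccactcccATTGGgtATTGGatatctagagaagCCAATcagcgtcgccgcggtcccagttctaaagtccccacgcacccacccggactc
HLA-F (chr6:29723184-29723433, plus strand): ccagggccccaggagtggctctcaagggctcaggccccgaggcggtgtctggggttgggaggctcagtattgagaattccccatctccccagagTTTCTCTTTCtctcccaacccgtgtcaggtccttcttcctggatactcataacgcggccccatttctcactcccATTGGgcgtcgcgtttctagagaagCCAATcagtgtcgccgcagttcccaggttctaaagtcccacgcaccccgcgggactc
B2M (chr15:44711267-44711516, plus strand): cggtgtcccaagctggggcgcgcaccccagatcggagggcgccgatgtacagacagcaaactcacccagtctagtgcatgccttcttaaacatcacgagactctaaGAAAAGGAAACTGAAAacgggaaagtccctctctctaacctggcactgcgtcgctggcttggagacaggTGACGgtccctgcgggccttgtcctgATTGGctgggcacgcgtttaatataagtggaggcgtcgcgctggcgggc
TAP1 (chr6:32853705-32853954, minus strand): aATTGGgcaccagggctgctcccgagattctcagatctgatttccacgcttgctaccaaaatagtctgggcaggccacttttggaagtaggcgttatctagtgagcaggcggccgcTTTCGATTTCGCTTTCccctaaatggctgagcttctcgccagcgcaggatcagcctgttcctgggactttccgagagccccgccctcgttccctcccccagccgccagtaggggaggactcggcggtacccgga
TAPBP (chr6:33314079-33314328, minus strand): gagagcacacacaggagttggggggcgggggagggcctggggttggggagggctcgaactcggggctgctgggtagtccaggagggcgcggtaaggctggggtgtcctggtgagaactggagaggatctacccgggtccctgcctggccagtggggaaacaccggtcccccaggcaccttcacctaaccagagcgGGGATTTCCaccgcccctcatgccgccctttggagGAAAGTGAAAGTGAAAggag

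An ISRE-like match stood in this window in 7 of the 7 genes (for TAP1 in 1 of its entries), against 9.08% of the 35116 RefSeq promoter entries. NF-kappaB-like letters with this fixed spacing stood in HLA-B and TAPBP, against 5.78% of all entries. Letters with 1 base more between GGG and TTCC were not searched or marked. Such letters stand in TAP1 (gggactttcc), in TAPBP over the marked match and the base before it (gGGGATTTCC) and, on the other strand, in B2M (ggaaagtccc). CCAAT stood in HLA-B, HLA-C, HLA-F, B2M and TAP1, against 32% of entries, and TGACG in HLA-B, HLA-C, B2M and TAP2, against 21.2%. Counted from the start as negative positions, the ISRE-like letters ran from -155 to -147 in HLA-B and from -156 to -147 in HLA-F, and in TAPBP the first of them began at -20. The TAP1 start of this entry lies 488 bases from the start of PSMB9, which runs the other way. These matches describe letters in a window and are not measured binding sites.

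Libraries held 37878751 to 76906266 assigned fragments in AID-DIvA cells and 46285533 to 70692114 in U2OS cells. U2OS WT untreated replicate 1 stood apart from its 2 replicates, with a chi-square per gene of 92.4 and 82.0 against 4.06 between the others, while pairs in all other groups lay between 2.62 and 24.5. Counts of members called in treatment, genotype and interaction comparisons that use this library are given with and without it, with single values it moves. The WT difference between sets also uses it, and its count is given with the range over fits without 1 library. ID3, the targeted gene, was lower in ID3-KO than in WT cells in every pairing by edgeR's quasi-likelihood test, by -0.56 (log2, adjusted p = 8.38e-06) in untreated AID-DIvA cells and by -1.21 (adjusted p = 4.92e-07) in treated U2OS cells, with transcript still counted in every ID3-KO library. Of 8 bone lineage markers, COL1A1 and SPARC were abundant (means of 1480 and 1195 CPM over the 24 libraries), and the list summed to 1732 to 4121 CPM over libraries. RUNX2 averaged 25.1 CPM and ALPL 2.44 CPM, while COL1A2 (0.521 CPM), IBSP, SP7 and BGLAP were near 0. Of 10 leukocyte markers, PTPRC stayed at or under 0.407 CPM, FCGR3A was at 0 in 23 libraries and LYZ and CD3E in 17 each. The leukocyte list summed to 7.58 to 9.64 CPM in untreated and 26.9 to 39.9 CPM in recovered AID-DIvA libraries, and to 12.4 to 13.7 CPM in untreated and 26.8 to 40.6 CPM in treated U2OS libraries. ITGAX and ITGAM carried that difference, since without them the list summed to 0.399 to 1.07 CPM over all libraries.

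Levels can be compared between genes only per length. In untreated AID-DIvA WT cells B2M was the highest member at 109.9 ± 3.38 CPM per kb of exon (SD, n = 3), followed by HLA-C at 59.1 ± 1.29 CPM per kb and HLA-B at 52.9 ± 2.48 CPM per kb. HLA-E stood at 30.8 ± 0.418 CPM per kb and TAPBP at 21.3 ± 0.644 CPM per kb. The transporter subunits were lower, with TAP1 at 4.86 ± 0.314 and TAP2 at 3.44 ± 0.0697 CPM per kb. HLA-F, at 0.930 ± 0.0452 CPM per kb, and the regulator NLRC5, at 0.860 ± 0.0643 CPM per kb, closed the order. In treated U2OS ID3-KO cells HLA-B had reached 120.3 ± 7.02 CPM per kb, next to 124 ± 8.96 CPM per kb for B2M, and HLA-F 5.49 ± 0.344 CPM per kb. Thus B2M had the highest mean at both ends, although its SD overlapped that of HLA-B in treated U2OS ID3-KO cells. The lengths are the exonic length of each gene and not of the transcripts present, so the order between genes is approximate. HLA-F ranged over the group means from 4.36 to 25.7 CPM.

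**Figure D1:**
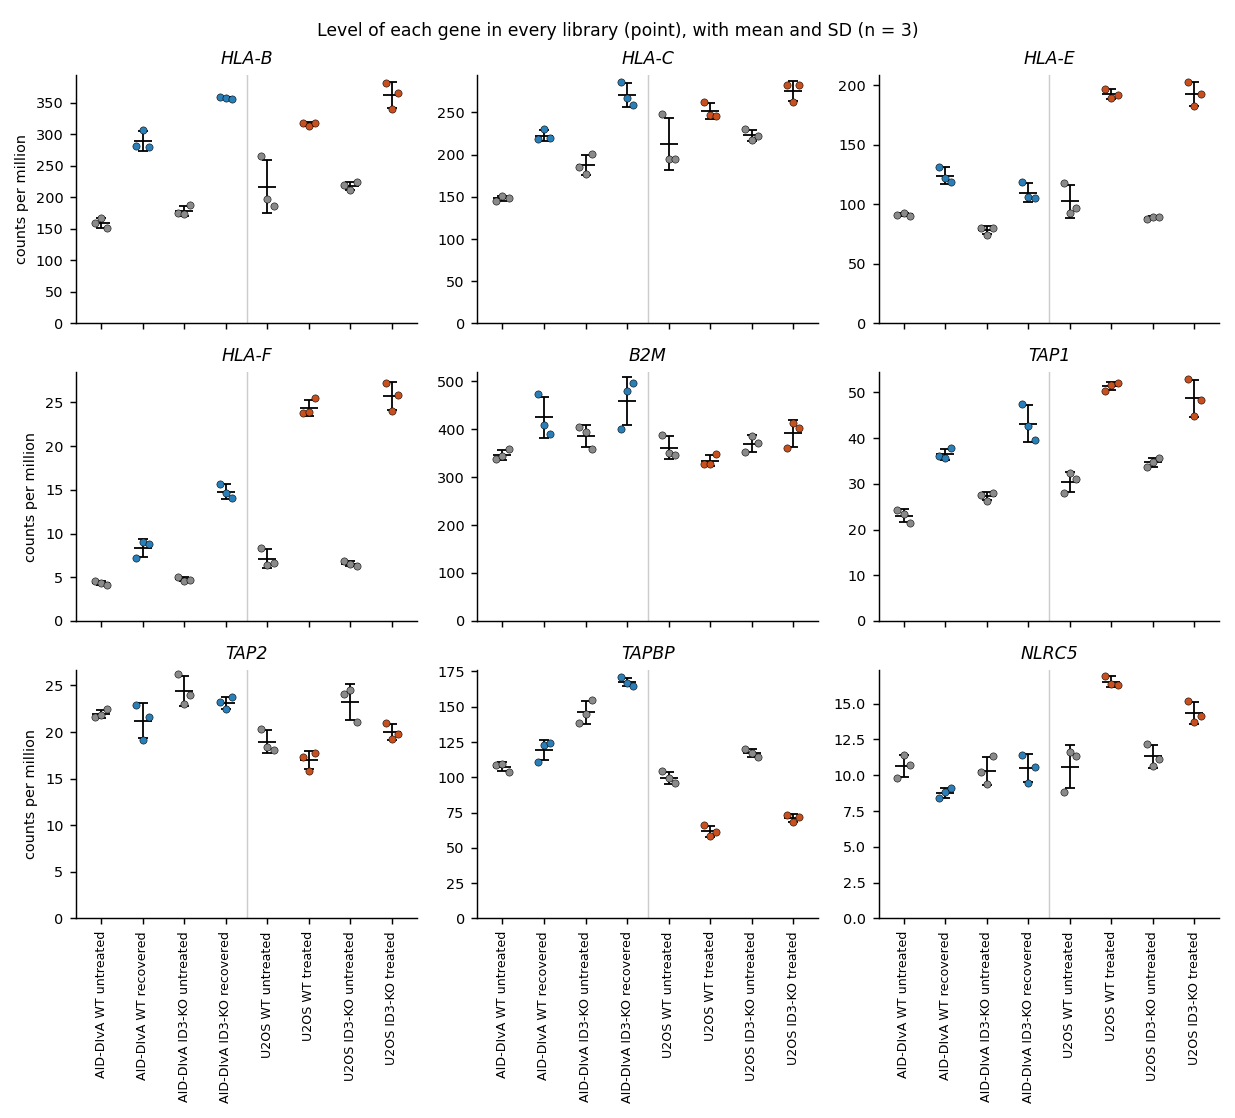
Level of each of the 9 genes in CPM (linear axes from 0) in every library of the 8 groups, grey for untreated, blue for AID-DIvA after recovery and red for U2OS before recovery, with the mean and SD of 3 libraries. HLA-B and HLA-F were higher in every treated library than in every untreated library of the same cell line and genotype, and TAPBP in U2OS cells was lower.

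Most of these genes rose with mocetinostat, led by the class I heavy chains and TAP1. TAPBP took different directions in the AID-DIvA and U2OS sets, while NLRC5 rose in U2OS cells and fell in AID-DIvA WT cells alone. In AID-DIvA WT cells after recovery 7 of 9 genes rose, against 23.9% of the 20289 genes tested, and NLRC5 fell, against 23% lower. In AID-DIvA ID3-KO cells 6 of 9 rose, against 20.2% higher and 19.9% lower over all genes. In U2OS WT cells before recovery 5 of 9 rose and TAPBP fell, against 26% higher and 22.9% lower over all genes. Without WT untreated replicate 1 these were 6 higher and 1 lower, against 33.9% and 32.5% of all genes, and HLA-E changed by 1.03, TAP1 by 0.70, NLRC5 by 0.53 and TAPBP by -0.65 on the log2 scale (all called), B2M by -0.05 and TAP2 by -0.09 (not called). In U2OS ID3-KO cells 6 of 9 rose while TAP2 and TAPBP fell, against 35.8% higher and 34% lower. The median log2 change of the 9 genes was 0.45 in AID-DIvA WT, 0.49 in AID-DIvA ID3-KO, 0.55 in U2OS WT and 0.35 in U2OS ID3-KO cells, and that of all genes lay between -0.02 and 0.01. A rise above 1 on the log2 scale was less common. No member passed it in AID-DIvA WT cells (4.86% of all genes did). HLA-B and HLA-F passed it in AID-DIvA ID3-KO cells (4.9% of all genes), HLA-F in U2OS WT cells (13.6%) and HLA-E and HLA-F in U2OS ID3-KO cells (14.6%). Calls are at an adjusted p below 0.05 by edgeR's quasi-likelihood test, corrected over all genes tested. In bulk libraries, more cells transcribing a gene and more RNA per cell cannot be told apart.

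**Figure D2:**
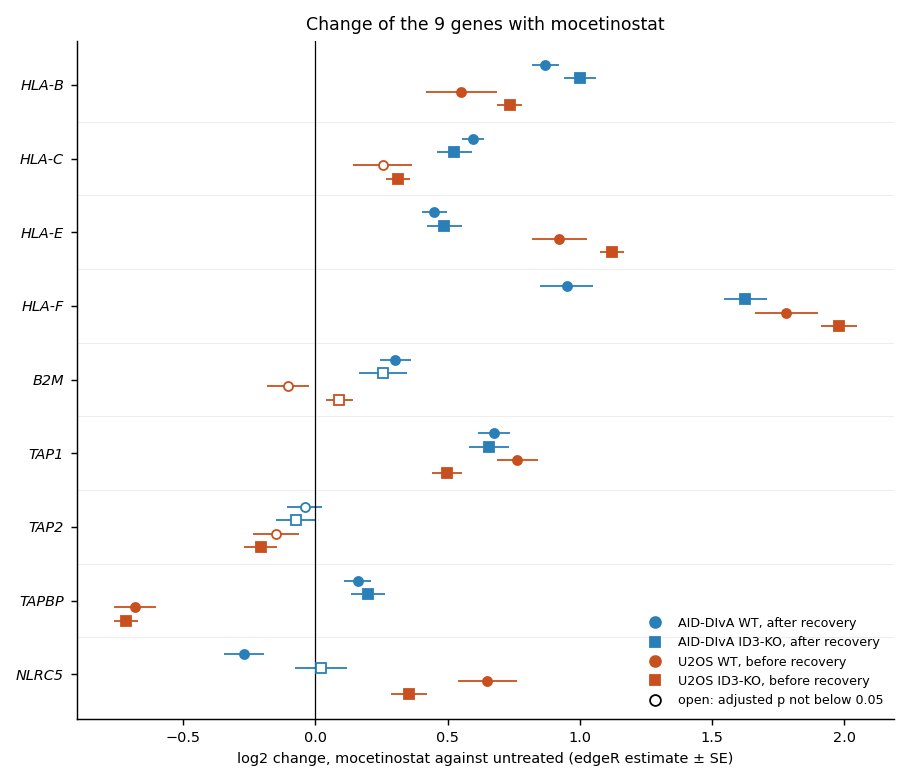
Log2 change ± SE of the 9 genes between mocetinostat-treated and untreated cells (x axis) in AID-DIvA after recovery and U2OS before recovery, with open symbols where the adjusted p was not below 0.05. HLA-F reached 1.98 in U2OS ID3-KO cells, and TAPBP lay above 0 in AID-DIvA cells and near -0.7 in U2OS cells.

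HLA-F, the least abundant heavy chain of the set, had the largest log2 change of the 9 genes in each pairing. In AID-DIvA WT cells it measured 4.55, 4.40 and 4.13 CPM untreated and 7.21, 9.05 and 8.83 CPM after recovery, and in ID3-KO cells 5.05, 4.59 and 4.74 CPM untreated and 15.7, 14.6 and 14.05 CPM after recovery. The U2OS WT libraries held 8.41, 6.35 and 6.69 CPM untreated and 23.8, 23.9 and 25.5 CPM treated, and the ID3-KO libraries 6.84, 6.58 and 6.24 CPM and 27.3, 24.04 and 25.9 CPM. Treated and untreated libraries did not overlap in any of these pairings. The fitted fold was 1.93 in AID-DIvA WT (log2 0.95, SE 0.10, adjusted p = 4.80e-06), 3.09 in AID-DIvA ID3-KO, 3.44 in U2OS WT and 3.94 in U2OS ID3-KO cells (adjusted p = 4.93e-17). Without U2OS WT untreated replicate 1, whose 8.41 CPM was the highest untreated value, the U2OS WT log2 change was 1.92.

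HLA-B, a classical heavy chain that presents to CD8+ T cells, rose in every pairing. AID-DIvA WT libraries held 159, 167 and 152 CPM untreated and 282, 307 and 279.8 CPM after recovery, and ID3-KO libraries 175, 174 and 188 CPM and 359, 357 and 357 CPM. U2OS WT libraries held 266, 198 and 187 CPM untreated and 317, 313 and 318 CPM treated, and ID3-KO libraries 219.7, 212 and 225 CPM and 381, 339 and 366 CPM. No treated library overlapped the untreated ones of its own line and genotype, although U2OS WT untreated replicate 1 lay well above its 2 replicates. The log2 changes were 0.87 (SE 0.05, adjusted p = 1.76e-08) and 1.001 (SE 0.059) in AID-DIvA WT and ID3-KO cells, a fold of 1.83 and 2.001. In U2OS WT cells the change was 0.55 (SE 0.13, adjusted p = 0.0108), or 0.72 without that library, and in U2OS ID3-KO cells 0.73 (SE 0.047).

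HLA-C, the other classical heavy chain in the set, moved less. AID-DIvA WT libraries held 145, 151 and 149 CPM untreated and 218, 230.0 and 219 CPM after recovery, and ID3-KO libraries 186, 177 and 200.5 CPM and 287, 267 and 258 CPM. U2OS WT libraries held 248, 194 and 195 CPM untreated and 263, 246 and 246 CPM treated, and ID3-KO libraries 230.0, 217 and 222 CPM and 282, 262 and 283 CPM. The U2OS WT groups overlapped through untreated replicate 1 and the other pairings did not overlap. The gene rose by 0.60 (SE 0.041) and 0.53 (SE 0.065) on the log2 scale in AID-DIvA WT and ID3-KO cells and by 0.31 (SE 0.044) in U2OS ID3-KO cells. In U2OS WT cells the difference was 0.25 (SE 0.11, adjusted p = 0.0939) and missed the threshold. Without untreated replicate 1 it was 0.38 with an adjusted p of 1.30e-13. With all libraries it was also called under plain library totals (log2 0.35) and with the 4 U2OS groups in 1 fit (0.25, adjusted p = 0.0247).

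HLA-E, the ligand of the CD94-NKG2 receptors, rose in all 4 pairings and more in the U2OS set. AID-DIvA WT libraries held 91.3, 92.97 and 90.5 CPM untreated and 132, 122 and 119 CPM after recovery, and ID3-KO libraries 80.1, 74.4 and 80.6 CPM and 119, 106 and 105 CPM. U2OS WT libraries held 118, 92.8 and 96.9 CPM untreated and 197, 189 and 192 CPM treated, and ID3-KO libraries 87.7, 89.9 and 89.6 CPM and 203, 183 and 193 CPM. Treated libraries stood above untreated ones without overlap in each pairing. The log2 changes were 0.45 and 0.49 in AID-DIvA WT and ID3-KO cells and 0.92 (SE 0.10, adjusted p = 0.000249) and 1.12 (SE 0.046, adjusted p = 8.59e-16) in U2OS WT and ID3-KO cells.

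B2M, the light chain shared by all class I molecules, changed little. B2M in AID-DIvA WT libraries measured 337, 344 and 358 CPM untreated and 473, 409 and 390.3 CPM after recovery, and ID3-KO libraries 404, 393 and 359 CPM and 401, 479.5 and 496 CPM. The U2OS WT libraries gave 388, 349.9 and 345 CPM untreated and 327, 328 and 348 CPM treated, and ID3-KO libraries 351, 386 and 371 CPM and 359.7, 414 and 401 CPM. Groups overlapped in 3 of these 4 pairings, the exception being AID-DIvA WT. There B2M rose by 0.30 (log2, SE 0.06, adjusted p = 0.00101). The other differences, 0.26 (adjusted p = 0.0507) in AID-DIvA ID3-KO, -0.10 in U2OS WT and 0.09 in U2OS ID3-KO cells, did not pass the test. Without AID-DIvA ID3-KO recovered replicate 1 the first of them was 0.36 (adjusted p = 0.000180), and without U2OS ID3-KO treated replicate 1 the last was 0.15 (adjusted p = 0.00447), both then called. Other choices with all libraries kept also called them. Of 14 alternatives in all, 5 called the rise in AID-DIvA ID3-KO cells and 4 that in U2OS ID3-KO cells.

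The transporter subunits separated. TAP1 in AID-DIvA WT libraries measured 24.3, 23.5 and 21.4 CPM untreated and 36.1, 35.6 and 37.8 CPM after recovery, and in ID3-KO libraries 27.7, 26.3 and 28.1 CPM and 47.5, 42.6 and 39.5 CPM. In U2OS WT libraries it measured 28.1, 32.3 and 30.9 CPM untreated and 50.3, 51.6 and 51.99 CPM treated, and in ID3-KO libraries 33.7, 34.8 and 35.5 CPM and 52.9, 44.8 and 48.4 CPM. TAP1 rose in every pairing without overlap, by 0.67 (SE 0.06), 0.66 (SE 0.074), 0.76 (SE 0.077) and 0.50 (SE 0.057) on the log2 scale in AID-DIvA WT, AID-DIvA ID3-KO, U2OS WT and U2OS ID3-KO cells.

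TAP2, its partner in the heterodimer, did not follow it. TAP2 in AID-DIvA WT libraries measured 21.6, 21.8 and 22.5 CPM untreated and 22.9, 19.2 and 21.6 CPM after recovery, and ID3-KO libraries 26.2, 22.9999 and 23.96 CPM and 23.2, 22.4 and 23.7 CPM. The U2OS WT libraries gave 20.4, 18.4 and 18.1 CPM untreated and 17.4, 15.9 and 17.7 CPM treated, and ID3-KO libraries 24.1, 24.5 and 21.1 CPM and 20.98, 19.3 and 19.8 CPM. The AID-DIvA groups overlapped, and in U2OS cells every treated library lay just under the untreated ones of its genotype. TAP2 fell by 0.21 (log2, SE 0.063, adjusted p = 0.00559) in U2OS ID3-KO cells, and the differences of -0.04, -0.08 and -0.15 in AID-DIvA WT, AID-DIvA ID3-KO and U2OS WT cells did not pass the test. The call in U2OS ID3-KO cells was lost under plain library totals (-0.13, adjusted p = 0.0848).

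TAPBP, which encodes the loading chaperone tapasin, went in opposite directions in the 2 sets. TAPBP in AID-DIvA WT libraries measured 109, 109.6 and 104 CPM untreated and 111, 123 and 124 CPM after recovery, and ID3-KO libraries 138, 145 and 155 CPM and 171, 167 and 165 CPM. U2OS WT libraries held 104, 99.2 and 95.8 CPM untreated and 65.9, 58.3 and 60.9 CPM treated, and ID3-KO libraries 120.4, 117 and 114 CPM and 73.2, 68.1 and 71.9 CPM. The U2OS treated libraries all lay far under the untreated ones. In U2OS cells TAPBP was 0.623 times the untreated level in WT (log2 -0.68, SE 0.079, adjusted p = 0.000268) and 0.609 times in ID3-KO cells (log2 -0.72, SE 0.045). In AID-DIvA cells it rose by 0.16 (SE 0.052, adjusted p = 0.0215) in WT and 0.20 (SE 0.063, adjusted p = 0.0311) in ID3-KO cells. Both of these small rises lost their call in 4 of the 6 fits without 1 library, which were those without recovered replicate 2 or 3 in either genotype, without untreated replicate 1 in either, without untreated replicate 3 in WT and without untreated replicate 2 in ID3-KO, with adjusted p up to 0.118 in WT and 0.135 in ID3-KO cells.

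NLRC5, the class I transactivator, rose in the U2OS set. NLRC5 in AID-DIvA WT libraries measured 9.82, 11.4 and 10.7 CPM untreated and 8.42, 8.84 and 9.10 CPM after recovery, and ID3-KO libraries 10.2, 9.39 and 11.3 CPM and 11.4, 9.48 and 10.6 CPM. U2OS WT libraries held 8.85, 11.6 and 11.3 CPM untreated and 16.96, 16.3 and 16.3 CPM treated, and ID3-KO libraries 12.2, 10.7 and 11.1 CPM and 15.2, 13.7 and 14.2 CPM. All U2OS treated libraries exceeded all untreated ones of their genotype. The log2 change was 0.65 (SE 0.11, adjusted p = 0.00216) in U2OS WT and 0.35 (SE 0.069) in U2OS ID3-KO cells. In AID-DIvA WT cells NLRC5 fell by 0.27 (SE 0.076, adjusted p = 0.00987), a call lost without untreated replicate 2 (adjusted p = 0.0670), and in AID-DIvA ID3-KO cells the difference was 0.02. HLA-B, HLA-C and TAP1 rose in both AID-DIvA genotypes, in neither of which NLRC5 was called higher. Treated AID-DIvA cells were collected only after recovery, and whether NLRC5 has a part in these changes was not tested.

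The response was compared between the sets in 1 model per genotype, as the log2 change in U2OS before recovery minus that in AID-DIvA after recovery. HLA-E, HLA-F and NLRC5 had the more upward change in U2OS in both genotypes, and the change of HLA-C was smaller there. TAPBP was also lower by this measure in both genotypes, because it fell in U2OS and rose slightly in AID-DIvA cells. In WT cells 3 members were higher by this measure, against 21.7% of all genes tested, and 3 lower, against 20.5%. Fits without 1 library called 5 to 7 members in WT cells. In ID3-KO cells there were again 3 higher and 3 lower, against 27.7% and 24.8%, shares close to 3 of 9. The ID3-KO count fell with all 24 libraries in 1 fit, as given below. NLRC5 differed by 0.93 (SE 0.14, adjusted p = 0.000102) in WT and 0.34 (SE 0.12, adjusted p = 0.0273) in ID3-KO cells. TAPBP differed by -0.84 (SE 0.1) and -0.91 (SE 0.077), the largest differences toward AID-DIvA among the members. HLA-F differed by 0.84 and 0.36, and HLA-E by 0.48 and 0.64. HLA-C differed by -0.34 in WT (adjusted p = 0.0429) and -0.21 in ID3-KO cells (adjusted p = 0.0393). B2M was lower by this measure in WT cells (-0.40), and HLA-B in ID3-KO cells (-0.26). The HLA-C calls were lost in 9 of 12 WT and 5 of 12 ID3-KO fits without 1 library, and the NLRC5 call in ID3-KO cells in 6 of 12. Whether drug withdrawal, cell line or sequencing set accompanies these differences cannot be told apart.

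In the AID-DIvA set, loss of ID3 came with small rises of several members that were already present without drug. In untreated AID-DIvA cells 5 of 9 genes were higher in ID3-KO than in WT cells, against 18.6% of all genes, and HLA-E was lower, against 18.1%. TAPBP differed most, at 146 ± 8.37 CPM in ID3-KO and 107 ± 3.26 CPM (SD, n = 3) in WT cells, a log2 difference of 0.42 (SE 0.052, adjusted p = 9.23e-06). HLA-C was higher by 0.32 (SE 0.051, adjusted p = 0.000109), TAP1 by 0.23 (adjusted p = 0.00801), HLA-B by 0.14 (adjusted p = 0.0353) and B2M by 0.13 (adjusted p = 0.0315). HLA-E differed by -0.25 (SE 0.047, adjusted p = 0.000574), and HLA-F, TAP2 and NLRC5 did not pass the test. On the strand of the kit HLA-F was called, higher in ID3-KO cells by 0.26 (adjusted p = 0.0322). The HLA-B call was lost without WT replicate 1 or 3, the TAP1 call without WT replicate 3, and the B2M call without WT replicate 1 or 2 or ID3-KO replicate 1 or 2 (adjusted p up to 0.202). With the replicate number as a block, HLA-B (adjusted p = 0.0535) and B2M (adjusted p = 0.0602) also missed the threshold. Of all 14 alternatives run, HLA-B lost its call in 4 and B2M in 6. The adjusted p of B2M reached 0.306 over these edgeR and DESeq2 fits.

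In untreated U2OS cells, 0 of 9 genes passed the test with all libraries, against 6.56% of all genes higher and 8.63% lower, with 3 members (TAP1, TAP2 and TAPBP) at an unadjusted p under 0.05 in edgeR and 1 member, TAPBP, called by DESeq2. Without WT untreated replicate 1, 6 members were higher and HLA-E was lower in ID3-KO cells, against 20.5% higher and 20.6% lower over all genes. TAP2 was then higher by 0.35, TAPBP by 0.26, HLA-C by 0.20, HLA-B by 0.18, TAP1 by 0.13 and B2M by 0.09 (adjusted p = 0.0480), and HLA-E was lower by a log2 difference of -0.09 (adjusted p = 0.0491). With all libraries, TAPBP was also called by DESeq2 (0.24, adjusted p = 0.0335), on the strand of the kit (0.26, adjusted p = 0.0365) and with the 4 U2OS groups in 1 fit (log2 0.23), and TAP2 in that last fit (0.29, adjusted p = 0.0160). The calls of the other 5 appeared, among the alternatives run, without WT untreated replicate 1 alone.

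After treatment HLA-B, HLA-C and TAPBP were higher in ID3-KO cells of both sets by edgeR's quasi-likelihood test. HLA-E and TAP1 differed by -0.19 (adjusted p = 0.0564) and 0.22 (adjusted p = 0.0599) in recovered AID-DIvA cells, which with the 4 AID-DIvA groups in 1 fit were -0.21 and 0.21, both called, and they did not pass the test in treated U2OS cells (adjusted p = 0.997 and 0.292). In AID-DIvA cells after recovery HLA-B, HLA-C, HLA-F and TAPBP were higher in ID3-KO than in WT cells, 4 of 9 members against 12.6% of all genes higher and 11.1% lower. HLA-F stood at 14.8 ± 0.839 CPM in ID3-KO and 8.36 ± 0.9998 CPM in WT cells (SD, n = 3) with no overlap, a log2 difference of 0.81 (SE 0.10, adjusted p = 0.000329). TAPBP differed by 0.47 (SE 0.065), HLA-B by 0.29 (SE 0.059) and HLA-C by 0.27 (SE 0.058). With the replicate block the HLA-C difference missed the threshold (adjusted p = 0.0506). In U2OS cells before recovery 5 of 9 members were higher in ID3-KO cells, against 19% of all genes, and NLRC5 was lower, against 19%. TAP2 differed by 0.23, B2M by 0.23, TAPBP by 0.20, HLA-B by 0.20, HLA-C by 0.13 (adjusted p = 0.0163) and NLRC5 by -0.20 (SE 0.063, adjusted p = 0.0128). HLA-F differed by 0.08 there and did not pass the test. The HLA-C call was lost without WT treated replicate 2 or 3 or ID3-KO treated replicate 3 (adjusted p up to 0.118), and the NLRC5 call without WT treated replicate 1 or ID3-KO treated replicate 3 (adjusted p up to 0.0683). With the 4 U2OS groups in 1 fit, HLA-B (adjusted p = 0.242), HLA-C (0.359), TAP2 (0.0571) and NLRC5 (0.155) missed the threshold, and B2M (0.0403) and TAPBP (0.0423) were called.

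**Figure D3:**
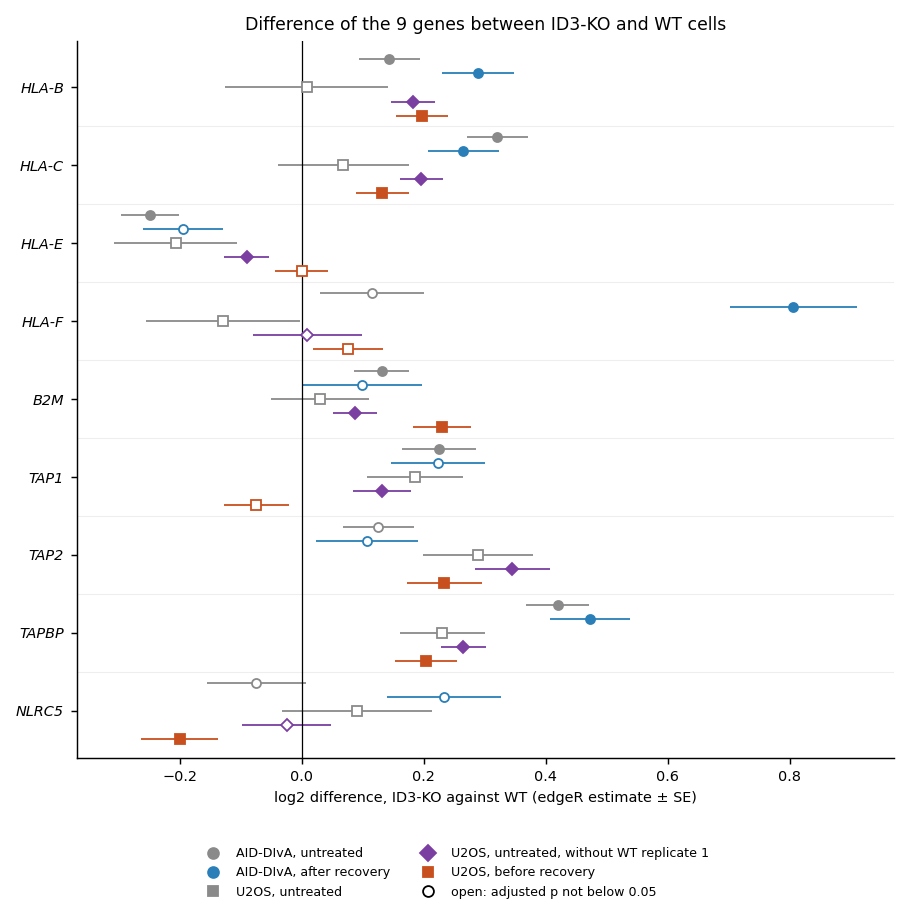
Log2 difference ± SE of the 9 genes between ID3-KO and WT cells (x axis) in untreated and treated AID-DIvA and U2OS cells, with the untreated U2OS comparison also shown without WT replicate 1, and open symbols where the adjusted p was not below 0.05. TAPBP lay between 0.20 and 0.47 in each comparison, and HLA-F reached 0.81 in AID-DIvA cells after recovery.

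Whether the response to mocetinostat itself differed between genotypes was tested as an interaction. In AID-DIvA cells HLA-F rose more in ID3-KO cells by 0.68 (log2, SE 0.13, adjusted p = 0.0139), 1 of 9 members against 0.762% of all genes higher and 0.451% lower, and 2 members, HLA-F and NLRC5, had an unadjusted p under 0.05. DESeq2 called 1 member. The call was lost without WT untreated replicate 1 (0.65, adjusted p = 0.0580), WT untreated replicate 2 (0.68, adjusted p = 0.0515) or ID3-KO untreated replicate 2 (0.65, adjusted p = 0.0560). In U2OS cells 0 of 9 members passed in edgeR and 0 in DESeq2, against 1.1% of all genes higher and 1.06% lower, and TAP1 (-0.26, adjusted p = 0.244) and NLRC5 (-0.30, adjusted p = 0.364), 2 members, had an unadjusted p under 0.05. Without WT untreated replicate 1, 0 members passed in U2OS cells either, the lowest adjusted p being that of TAP1 (-0.21, adjusted p = 0.0754). The HLA-F interaction in U2OS cells was 0.20 (SE 0.14).

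The order of the group means shows how much each member depended on set and treatment. HLA-F descended from 25.7 and 24.4 CPM in treated U2OS ID3-KO and WT cells, which overlapped each other, to 14.8 CPM in recovered AID-DIvA ID3-KO cells, which overlapped no neighbour, and then to 4.36 CPM in untreated AID-DIvA WT cells. HLA-B was highest in treated U2OS ID3-KO (362 CPM) and recovered AID-DIvA ID3-KO cells (358 CPM), whose libraries overlapped, and lowest in untreated AID-DIvA WT cells (159 CPM). TAPBP ran the other way between sets, from 167 CPM in recovered AID-DIvA ID3-KO cells to 61.7 CPM in treated U2OS WT cells, neither overlapping its neighbour. NLRC5 stood at 16.5 CPM in treated U2OS WT and 14.4 CPM in treated U2OS ID3-KO cells without overlap, above 11.3 CPM in the next group. For B2M every neighbour in the order from 459 to 334 CPM overlapped.

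The kit keeps strand, and the deposited tables count each gene on either strand and on the strand of the kit, which matters for 2 members with antisense neighbours. For HLA-F the either-strand count was 60.8 to 77.3% of the strand-specific count, with a median of 69.1% over 24 libraries, and for TAP1 it was 76.9 to 84.2%, with a median of 82.0%. For TAPBP it was 101 to 111%, and for the other members it lay between 98.2 and 100.5%. On the strand of the kit HLA-F stood at 5.81 ± 0.117 CPM in untreated and 12.4 ± 1.16 CPM in recovered AID-DIvA WT cells (SD, n = 3), and at 9.48 ± 0.595 CPM in untreated and 37.2 ± 3.06 CPM in treated U2OS ID3-KO cells. Its log2 changes there were 1.10, 1.63, 1.82 and 1.98 in AID-DIvA WT, AID-DIvA ID3-KO, U2OS WT and U2OS ID3-KO cells, and those of TAP1 were 0.65, 0.66, 0.72 and 0.47. The HLA-F interaction in AID-DIvA cells was 0.56 (adjusted p = 0.0410). No direction of the treatment changes of HLA-F or TAP1 turned with the strand.

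**Figure D4:**
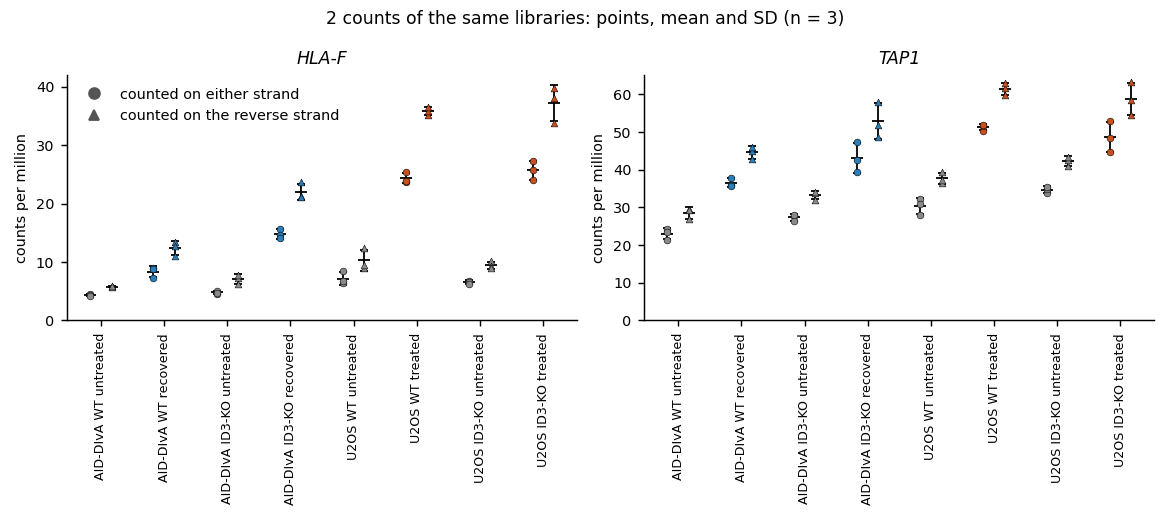
CPM of HLA-F and TAP1 (linear axes from 0) in each library of the 8 groups when counted on either strand (circles) or on the strand of the kit (triangles), with mean and SD of 3 libraries. The strand-specific values are higher in every group and keep the difference between treated and untreated cells.

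Other genes of the pathway were counted in named lists and read against the percentages of all genes given above. Among 6 other class I loci, 5 rose in AID-DIvA WT, 3 in AID-DIvA ID3-KO, 4 in U2OS WT and 5 in U2OS ID3-KO cells, with median changes of 0.48, 0.38, 0.45 and 0.66 (log2) over those tested. The pseudogene HLA-H rose by 0.39, 0.45, 0.40 and 0.39 in that order of cells. The pseudogene HLA-L rose by 0.26 in AID-DIvA WT, 1.05 in U2OS WT and 1.03 in U2OS ID3-KO cells. Under DESeq2 the calls of HLA-J, HLA-K and HLA-L in AID-DIvA WT cells were lost. So were those of HLA-K in AID-DIvA ID3-KO and HLA-G in U2OS ID3-KO cells. Plain library totals also ended the HLA-L call in AID-DIvA WT cells. Reads of such pseudogenes can be shared with the class I genes.

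The class I-like molecules, some of which are stress ligands of the NKG2D receptor, changed mainly in the U2OS set, where 5 of 6 tested genes rose in WT and 4 of 6 in ID3-KO cells, with medians of 0.74 and 0.85. In AID-DIvA cells 1 of 5 tested rose in WT and 1 of 5 fell in ID3-KO cells. MICA, an NKG2D ligand, rose by 0.75 and 0.99 in U2OS WT and ID3-KO cells and differed by 0.11 and 0.05 without passing the test in AID-DIvA cells. ULBP3 rose by 1.30 and 1.17 and ULBP2 by 0.74 and 0.71 in U2OS cells. MR1, which presents microbial metabolites to MAIT cells, went the other way there, by -0.95 and -1.10, and rose by 0.30 in AID-DIvA WT cells. In 1 model the MICA responses differed between sets by 0.64 in WT and 0.95 in ID3-KO cells, and those of MR1 by -1.24 and -1.26, all called.

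The proteasome subunits that cut the peptides did not move together. PSMB9, the immunoproteasome subunit encoded beside TAP1, rose from 5.84 ± 0.268 to 14.9 ± 0.655 CPM (SD, n = 3) in AID-DIvA WT cells and from 7.68 ± 0.460 to 25.6 ± 1.35 CPM in U2OS ID3-KO cells. Its log2 changes were 1.36, 1.69, 1.53 and 1.74 in AID-DIvA WT, AID-DIvA ID3-KO, U2OS WT and U2OS ID3-KO cells, above those of TAP1, and 1.36, 1.69, 1.54 and 1.73 on the strand of the kit. PSMB8, its partner subunit, rose by 0.53 and 0.71 in AID-DIvA cells and fell in U2OS cells (log2 -0.49 and -0.56). PSMB10, the remaining catalytic immunosubunit, fell in AID-DIvA WT cells (-0.30) and in U2OS WT and ID3-KO cells (-1.41 and -1.81). Its call in AID-DIvA WT cells was lost under DESeq2. Over the 5 genes of the list, 3 rose and 1 fell in AID-DIvA WT, 3 rose in AID-DIvA ID3-KO, and 1 rose and 3 fell in each U2OS genotype. The constitutive counterparts PSMB5, PSMB6 and PSMB7 all fell in U2OS cells, by log2 changes of -0.89, -1.10 and -0.39 in WT and by between -1.14 and -0.40 in ID3-KO cells, whereas in AID-DIvA cells PSMB7 rose by 0.30 and 0.40 and the other 2 did not pass the test. PSMB8 and PSMB10 responses differed between sets by -1.01 and -1.09 in WT cells (both called), and that of PSMB9 by 0.17, which was not.

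**Figure D5:**
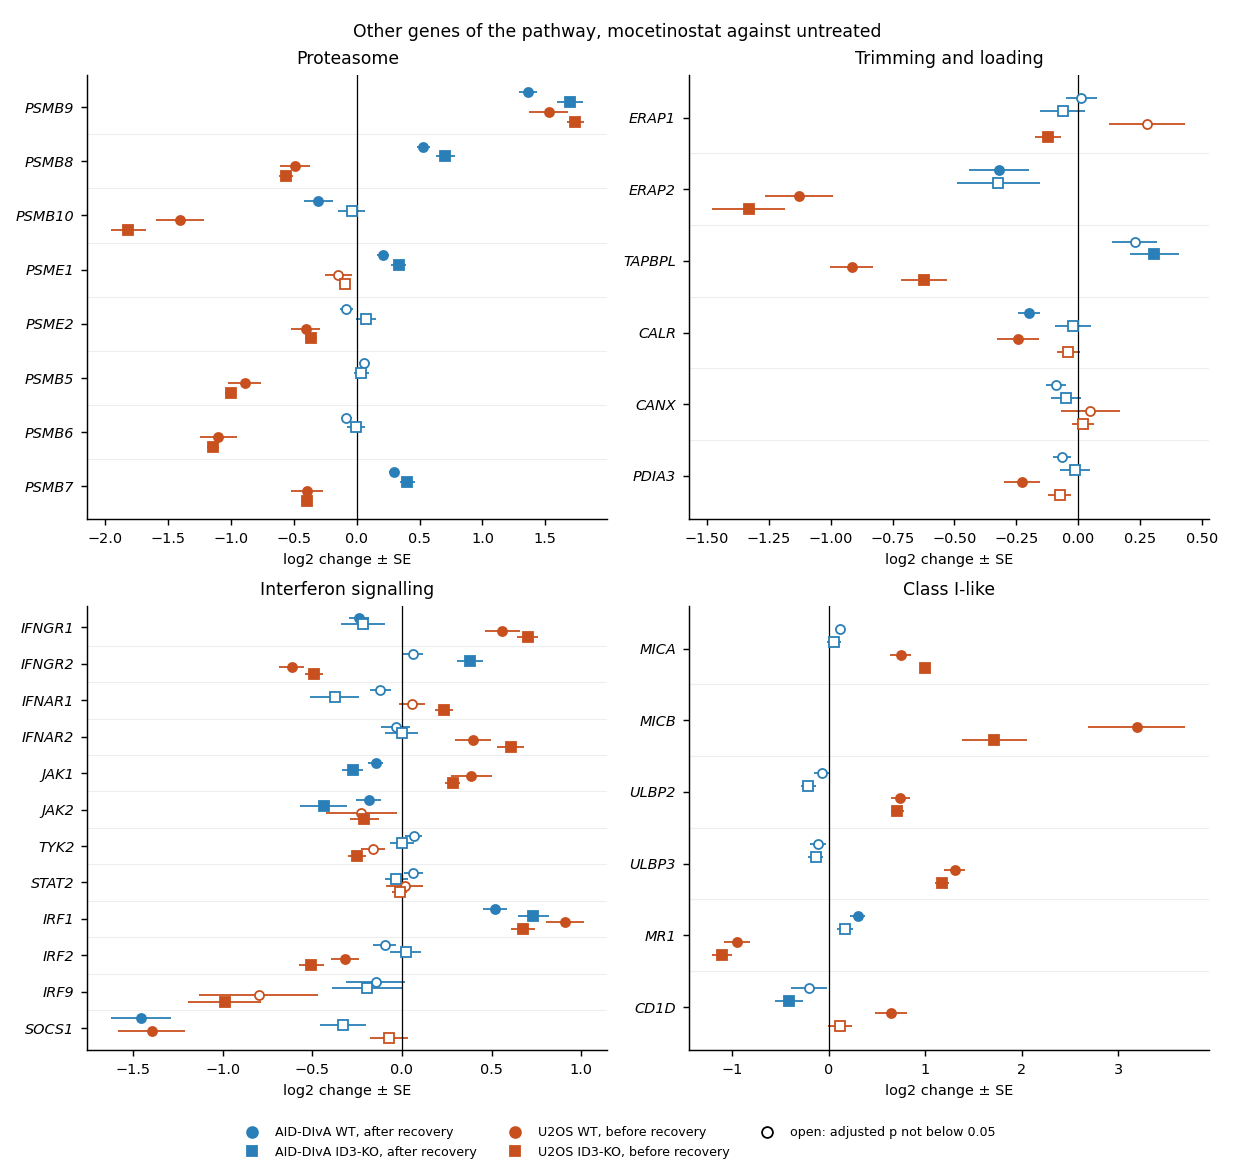
Log2 change ± SE with mocetinostat (x axes, which differ between panels) of proteasome subunits, trimming and loading factors, 12 of the 13 interferon signalling genes and class I-like molecules in AID-DIvA cells after recovery and U2OS cells before recovery, with open symbols where the adjusted p was not below 0.05. PSMB9 lay between 1.36 and 1.74 in all 4 pairings, while PSMB8 was above 0 in AID-DIvA and under 0 in U2OS cells.

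Among 6 genes of peptide trimming and loading, 2 fell in AID-DIvA WT, 1 rose in AID-DIvA ID3-KO, 4 fell in U2OS WT (5 without WT untreated replicate 1) and 3 fell in U2OS ID3-KO cells. ERAP2, an aminopeptidase that trims peptides, fell in AID-DIvA WT (-0.32), U2OS WT (-1.13) and U2OS ID3-KO cells (-1.33). The first of these calls was lost under DESeq2. TAPBPL, a tapasin relative that edits the bound peptide, fell in U2OS WT and ID3-KO cells (-0.92 and -0.62), as TAPBP did, and rose in AID-DIvA ID3-KO cells (0.31).

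The regulators offered no single direction. Of the 8 RFX, NFY and CREB family genes through which NLRC5 works, 5 fell in AID-DIvA WT, 3 fell and 1 rose in AID-DIvA ID3-KO, 4 fell in U2OS WT (6 without WT untreated replicate 1) and 5 fell in U2OS ID3-KO cells, with medians between -0.17 and -0.15. NFYC fell in each pairing, by -0.30, -0.37, -0.82 and -0.73, as did ATF1, by -0.36, -0.28, -0.80 and -0.68. Of 13 interferon signalling genes, 1 rose and 5 fell in AID-DIvA WT, 2 rose and 3 fell in AID-DIvA ID3-KO, 5 rose and 3 fell in U2OS WT (5 and 7 without WT untreated replicate 1) and 6 rose and 5 fell in U2OS ID3-KO cells. IRF1, the interferon regulatory factor that binds the ISRE, rose in all 4, by 0.52, 0.73, 0.91 and 0.68. SOCS1, an inhibitor of JAK signalling, fell in both WT lines (-1.45 and -1.40), and IFNGR1, a chain of the interferon gamma receptor, rose in U2OS cells (0.56 and 0.70). The interaction test called 1 of the 13 genes in each set, with a response more upward in ID3-KO cells by over 1 (log2). Over all genes 0.762% in AID-DIvA and 1.1% in U2OS cells were called higher by that test. IRF9, a further interferon regulatory factor, fell in U2OS ID3-KO cells (-0.99). The interferon genes themselves were near 0, since 7 genes summed to 0.0404 to 0.170 CPM over libraries and the highest mean, that of IFNE, was 0.0724 CPM, too low to test.

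Of the 5 NF-kappaB subunits, 4 rose in AID-DIvA WT, 3 in AID-DIvA ID3-KO, 1 in U2OS WT (2 without WT untreated replicate 1) and 2 in U2OS ID3-KO cells, and in each U2OS genotype 1 fell. RELB, of the noncanonical pathway, rose by 1.24 and 1.57 in AID-DIvA WT and ID3-KO cells and by 0.52 in U2OS ID3-KO cells, and differed by 0.02 in U2OS WT cells, with responses that differed between sets by -1.22 and -1.05. NFKB2, its usual partner, rose in all 4 pairings, by 0.42, 0.65, 0.62 and 0.71. Beside the class I genes, the class II genes and their activator rose further from a low level, 6 of those tested in each AID-DIvA genotype and 7 of 8 in each U2OS genotype, with medians of 2.20, 2.47, 2.95 and 3.55. HLA-DMB, a class II peptide editor, rose by 1.72, 2.09, 4.21 and 5.10. CIITA, the class II counterpart of NLRC5, averaged 0.969 CPM over the 24 libraries, under the level set for naming, and is given because it pairs with NLRC5. CIITA rose in U2OS WT and ID3-KO cells (1.42 and 1.58) and differed by -0.23 and -0.15 without passing the test in AID-DIvA cells, and its response was larger in the U2OS set by 1.65 in WT and 1.73 in ID3-KO cells (both called), as was that of NLRC5. The leukocyte markers ITGAX (2.20, 1.95, 1.68 and 1.19) and ITGAM (1.81, 2.996, 1.20 and 1.27) moved with treatment too, while the rest of that list stayed near 0 in all libraries.

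Genes with the most similar pattern were sought among 15592 genes by the Pearson correlation of the 8 group means of log2 CPM, which share libraries and scaling and are given as a description. The nearest gene was N4BP3 for HLA-B (0.9948), RRAGD for HLA-C (0.9910), CRYM for HLA-E (0.9950), MAP7 for HLA-F (0.9954), RP3-460G2.2 for B2M (0.9600), HLA-H for TAP1 (0.9882), TUB for TAP2 (0.9899), PPP2R2D for TAPBP (0.9878) and ANKS1A for NLRC5 (0.9841). None of these nearest genes was another member. Among the members, HLA-F and TAP1 correlated at 0.9580, HLA-B and TAP1 at 0.9419 and HLA-B and HLA-C at 0.9391, whereas HLA-E and TAPBP ran in opposite directions (-0.7979).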

How the data were processed

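The authors sequenced stranded total RNA, aligned reads to hg19/GRCh37 with STAR and counted fragments per gene with featureCounts (versions not given in the sources used here). The deposited count columns hold raw fragment counts on either strand, used as the main values, and on the strand of the kit, used as an alternative. The deposited FPKM and TPM columns were not used, and the gene identifiers carry other version numbers than the annotation named in the methods. Some results are not reported here. Members and lists were chosen with earlier results of these data known.

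Counts were tested on all genes passing filterByExpr with edgeR 4.0.16 (TMM, quasi-likelihood, robust) in R 4.3.3, 1 fit per pair of groups, with an adjusted p below 0.05 as threshold. Interactions and differences between sets used 1 fit of 4 groups. CPM values are counts over TMM-scaled totals of all 24 libraries. DESeq2 1.42.0 was an alternative. The methods were tested on simulated data. All 9 members and ID3 are named, and in each list at most 4 called genes averaging at least 1 CPM with the largest change. Likeness used a pseudocount of 0.01 CPM. Same-numbered replicates did not vary together (correlations between -0.34 and 0.23), so numbers were not taken as pairs.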

Additional observations from a re-analysis of the deposited data

Results flagged for a closer look

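The following differences between groups passed a test of the difference itself, in 1 edgeR quasi-likelihood fit of 4 groups with adjustment over all genes. The HLA-F response to mocetinostat was larger in ID3-KO than in WT AID-DIvA cells by 0.68 (log2, SE 0.13, adjusted p = 0.0139). That call was lost in 3 of 12 fits without 1 library. All 3 recovered ID3-KO libraries lay above all 3 recovered WT libraries, which describes the treated cells alone.

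Between the U2OS response before recovery and the AID-DIvA response after recovery, WT cells differed in HLA-C by -0.34 (adjusted p = 0.0429), HLA-E by 0.48 (adjusted p = 0.00578), HLA-F by 0.84 (adjusted p = 0.00108), B2M by -0.40 (adjusted p = 0.00998), TAPBP by -0.84 (adjusted p = 1.71e-05) and NLRC5 by 0.93 (adjusted p = 0.000102). In ID3-KO cells the differences were -0.26 for HLA-B (adjusted p = 0.00755), -0.21 for HLA-C (adjusted p = 0.0393), 0.64 for HLA-E (adjusted p = 3.86e-06), 0.36 for HLA-F (adjusted p = 0.00923), -0.91 for TAPBP (adjusted p = 1.50e-08) and 0.34 for NLRC5 (adjusted p = 0.0273). Negative values mean a response that was smaller, or more downward, in the U2OS set.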

How the results depend on the processing

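Of 1728 log2 changes of the 9 genes recomputed under the alternatives in 12 comparisons, 1625 stayed on their side of the threshold, 66 lost the call and 37 gained it, and no called change turned its direction. Requiring a log2 change beyond 1 left 0, 2, 1 and 2 members called in AID-DIvA WT, AID-DIvA ID3-KO, U2OS WT and U2OS ID3-KO treatment and 0 in the AID-DIvA untreated, AID-DIvA recovered and U2OS treated genotype comparisons, by its own construction. For ID3-KO against WT in untreated U2OS cells, 0 members were called as reported, 1 with DESeq2, 1 on the strand of the kit, 2 with the 4 groups in 1 fit, and 0 to 7 without 1 library, the 7 being without WT untreated replicate 1. For treated U2OS cells that comparison fell from 6 to 2 with the 4 groups in 1 fit, and the difference between sets in ID3-KO cells from 6 to 3 (2 higher, 1 lower) with all 24 libraries in 1 fit. The cause was not tested. The AID-DIvA interaction gave 0 to 1 member without 1 library. Leaving out 1 library moved the other counts by at most 2. The replicate block left 8, 5, 6 and 9 members called in the 4 treatment comparisons. It ended the calls of TAPBP in AID-DIvA ID3-KO treatment (adjusted p = 0.0740), HLA-B (0.0535) and B2M (0.0602) in untreated and HLA-C (0.0506) in recovered AID-DIvA genotype comparisons and HLA-C between sets in ID3-KO cells (0.0569), and added B2M in U2OS ID3-KO treatment (0.0397). List counts without U2OS WT untreated replicate 1 and on the strand of the kit were chosen after seeing the data. Under DESeq2, its size factors or plain library totals, 0 called genes of the lists, members included, turned direction in the 4 treatment comparisons. Some calls were lost. DESeq2 ended 7 of 47 in AID-DIvA WT, 2 of 39 in AID-DIvA ID3-KO, 0 of 56 in U2OS WT and 7 of 64 in U2OS ID3-KO cells. Its size factors ended 0, 1, 1 and 0 calls in that order, and plain library totals 1, 1, 4 and 5.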
